A study of Mus musculus with 4 samples.

Results

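Cytochrome P450 genes encode haem enzymes that add oxygen to drugs, pollutants, steroids, fatty acids and vitamins. They were taken here as all mouse probes whose gene name on the array has the form Cyp, number, letter, number, without Cyp11a1, Cyp17a1, Cyp26a1 and Cyp26b1, a pattern that uses no measured value. It gave 87 genes with 120 probes, of 24812 named genes and 56605 probes on the array. All genes but Cyp2c44, listed as Cyp2c23, carried the same symbol in the RefSeq gene table (86 of 87). The study set GC-2(spd)ts cells (2 arrays) against GC-1(spg) cells (2 arrays), both mouse testicular germ cell lines, on one-colour Agilent arrays. Both lines grew untreated in high-glucose DMEM with serum and antibiotics and were harvested near confluence. Each line is a single immortalised line: as background, GC-1 came from spermatogonia carrying SV40 large T antigen, while spermatocytes gave rise to GC-2, by large T together with a temperature-sensitive p53. The labels do not tell whether the arrays of a line were separate cultures, and p-values therefore cover the spread between these samples alone, which may be technical.

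P450 enzymes need electrons to work. Microsomal members take them from the reductase Por, helped by cytochrome b5, and mitochondrial members from ferredoxin. Families 1 to 4 act mostly on foreign compounds and fatty acids, with the liver as their main site, while higher-numbered families mostly make or break down steroids, bile acids and vitamin D. Ligand-activated factors such as the aryl hydrocarbon receptor (Ahr) and the receptors CAR (Nr1i3) and PXR (Nr1i2) switch on families 1, 2 and 3, and toxicologists read Cyp1a1 as a sign of Ahr activity.

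The arrays set the limits of what follows. Levels are log2 processed intensities minus the array's 75th percentile, an intensity of 416 and 199.9 in GC-2 and of 666 and 693 in GC-1. The log2 level of the dimmest probe still well above background was -5.58 and -4.69 for GC-2 and -6.19 and -5.92 for GC-1, so a dim gene could be missed in GC-2 first. All 4 arrays lay on 1 slide with a row for each line, so slide position and line cannot be told apart. Of 10 germ cell markers, 3 were measured in GC-2 and 4 in GC-1, with Dazl, Kit and Tex101 above background on no array. Of 8 liver markers, 2 were measured in GC-2 and 4 in GC-1, with Apoa1, Ttr and Hnf4a on no array. Of 6 Leydig markers 3 were measured in each line, without Hsd3b1, Hsd3b6 and Lhcgr, and their summed intensity was 4727 and 2520 in GC-2 and 1145 and 1547 in GC-1, with Nr5a1 and Star at 6.18 and 2.75 log2 and Akr1c14 at -3.88 log2, GC-2 minus GC-1. Of 8 Sertoli markers 5 were measured in GC-2 and 6 in GC-1, with summed intensities of 2674 and 1366 in GC-2 and 91645 and 75635 in GC-1, of which Wt1 alone gave 90669 and 74633. Of the 6 tested Sertoli markers Gata4 and Rhox5 were higher in GC-2, by 2.20 and 1.90 log2, and Wt1 and Fshr lower, with Wt1 at -6.29 log2 and Fshr above background on no GC-2 array, and the list's median was 0.48 log2. The part of these differences in the P450 results was not tested.

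In each line taken alone, most P450 genes were not measured. Measured means here that both arrays of the line had the same probe of the gene well above background. This held for 32 P450 genes in GC-2 (36.8%), where 62.5% of all named genes were measured, and for 42 in GC-1 (48.3%), where 68.5% were. Both lines shared 29 of these genes, 3 were measured in GC-2 alone and 13 in GC-1 alone. Another 8 were above background on some array without reaching that mark, and 34 on no array. This split was not counted over all named genes. With a laxer detection flag 56 P450 genes were measured in GC-2 and 55 in GC-1, so the surplus in GC-1 depends on the flag. The counts depend on where the limit lies: the array holds 96 ERCC probes, which target RNAs that no mouse cell makes and that the labels do not say were added, and 3 of them were well above background on both arrays of GC-2 and 8 on both arrays of GC-1. With the brightest ERCC probe of each array as the limit, an alternative set after seeing the data, 18 P450 genes (20.7%) were left in GC-2 and 21 (24.1%) in GC-1, 16 of them in both lines, where 51.2% and 53.0% of all named genes were left.

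**Figure D1:**
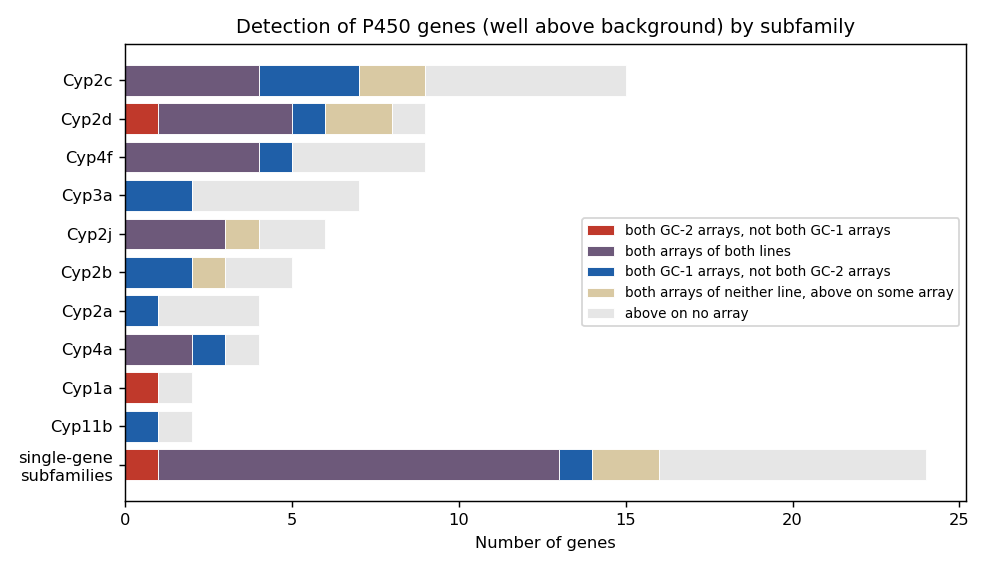
Number of P450 genes by subfamily (horizontal axis: genes), split by the line in which the gene was measured. The 2 measured Cyp3a genes and the 2 measured Cyp2b genes were measured in GC-1 alone, while the red segments stand for Cyp2d22, Cyp1a1 and Cyp4v3, measured in GC-2 alone.

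Several P450 genes best known from the liver and from steroid-making tissue were at background. Others, such as Cyp2e1 and Cyp21a1, were measured in both lines, each by only 1 probe. The Cyp2e1 probe lay below the brightest ERCC probe on every array, and the other Cyp2e1 probe was above background on no array. Cyp21a1 stayed above the ERCC limit in both lines. Cyp1a2, which activates arylamines, Cyp7a1 and Cyp8b1, which make bile acids, and Cyp27a1, which oxidises the cholesterol side chain, were above background on no array. The same held for Cyp19a1, the aromatase that makes oestrogen, for Cyp24a1, which breaks down vitamin D, for the adrenal aldosterone synthase Cyp11b2 and for Cyp4b1. Of 7 Cyp3a genes, whose human counterparts clear many drugs, none was measured in GC-2, and 2 were measured in GC-1. Of 5 Cyp2b genes none was measured in GC-2 and 2 in GC-1. Cyp2c, the family's epoxygenase and drug-oxidising branch, had 4 of 15 genes measured in GC-2 and 7 in GC-1. Cyp2d had 5 of 9 in each line and Cyp4f, the fatty acid and leukotriene hydroxylases, 4 of 9 in GC-2 and 5 in GC-1.

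Of the 45 P450 genes that could be tested, 9 were higher and 7 lower in GC-2 and 29 passed no threshold (limma, adjusted p under 0.05 over 36692 probes). Over all genes tested 18.3% were higher and 25.7% lower, or 44.1% either way, against 35.6% of the P450 genes. Only genes measured in GC-2, in GC-1 or in both were tested, which favours genes that differ. Of the 45, 16 were measured in 1 line alone, and 9 of these were called and 7 were not. Cyp2w1 was measured in each line by a different probe, and its called probe entered through GC-2 alone. For 28 genes the probe that stands for the gene was well above background on all 4 arrays. The median change was -0.11 log2 for P450 genes and -0.13 log2 for all genes, and the median size of a change, whatever its sign, was 0.53 and 0.76 log2. Of the 16 P450 genes past the threshold, 15 changed at least 2-fold by the limma estimate, a share not counted over all called genes. For those above background on no array of 1 line, that estimate is not a measured fold. The counts move with the processing, in both directions. With a normexp background correction, which adds an intensity offset of 50, 9 were higher and 4 lower (median 0.68 log2, and 0.15 for all genes). It shrank large changes of dim probes but also moved some changes upward. Cyp27b1 went from -0.45 to 0.75 log2 and Cyp2e1 from -0.28 to 0.72 log2, both uncalled in either setting. With only probes above background on all 4 arrays 5 were higher and 1 lower, and with a laxer detection flag 15 were higher and 7 lower. By scaling, 8 were higher and 10 lower when arrays were centred on the median, which put the median of all genes at -0.44 log2, and 3 were higher and 37 lower when arrays were scaled to the E1A spike-in probes, which put it at -2.19 log2. The 8 E1A probes lay 2.07 log2 higher on the GC-2 arrays, so that scaling lowers every change by that amount. All changes below are relative to the 75th percentile.

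**Figure D2:**
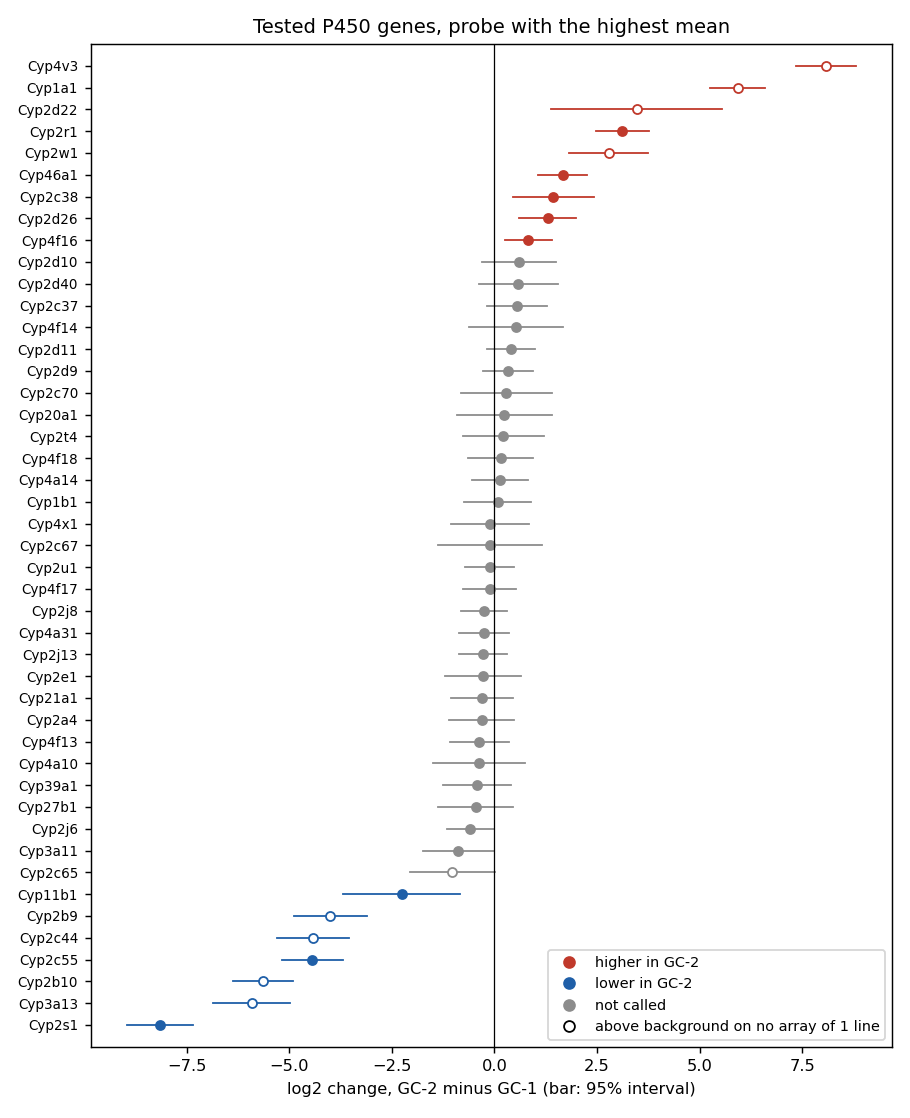
Log2 change of the 45 tested P450 genes, GC-2 minus GC-1, with 95% intervals from limma (n = 2 arrays per line). Open points mark probes above background on no array of 1 line, where the change is not a measured fold, and the changes run from -8.15 for Cyp2s1 to 8.08 for Cyp4v3.

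Cyp4v3 and Cyp1a1 gave the largest rises and were seen in GC-2 alone. Cyp4v3 is the mouse counterpart of human CYP4V2, a fatty acid hydroxylase whose loss in people damages the retina. Its intensities were 433 and 149 on the GC-2 arrays, against 1.88 and 2.59 on the GC-1 arrays, or log2 levels of 0.06 and -0.42 against -8.46 and -8.06. The GC-1 values are not well above background, so only a bound can be given, at least 58.6-fold more Cyp4v3 signal in GC-2 (limma, adjusted p = 0.000141). That bound holds for the processed intensities alone, since the normexp background gave a smaller change of 3.46 log2. Cyp1a1, which oxidises polycyclic aromatic hydrocarbons, had intensities of 66.4 and 42.3 on the GC-2 arrays, against 1.85 and 2.28 on the GC-1 arrays. At least 12.2-fold more Cyp1a1 signal was thus read in GC-2 (limma, adjusted p = 0.000180), with log2 levels of -2.65 and -2.24 against -8.49 and -8.25, and the normexp background gave 2.03 log2, again less than the bound. The bases read by the probes are shown because these calls rest on 1 probe each. They are bases 16 to 45 of 60, with nothing marked.
Cyp4v3: cgtgattggatgagttagaactcaggattt
Cyp1a1: taacaaagaagattctaactcaagtattca
The probes lie at chr8:46391395-46391454 on the minus strand and at chr9:57551535-57551594 on the plus strand (mm9, from the scanner files). No annotation of that build was at hand, so exon and UTR are not given for any probe.

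The Cyp1a1 promoter is shown because the gene is a known Ahr target, although the elements through which Ahr is best known to act lie farther upstream, outside this stretch. The core letters that Ahr and its partner Arnt bind, GCGTG, were searched on both strands of the 250 bases before each gene start in RefSeq's GRCm38.p6 table. They occurred in 28.2% of 32851 promoters and in 14 of 76 P450 promoters (18.4%, from 67 genes), while the letters TATAAA occurred in 12.4% of all promoters and 34.2% of P450 promoters. In the Cyp1a1 promoter, at chr9:57697363-57697612 on the plus strand, GCGTG starts 54 bases and TATAAA 30 bases before the gene start. A match describes letters and is no measured site. Both are in capitals.
Cyp1a1 promoter: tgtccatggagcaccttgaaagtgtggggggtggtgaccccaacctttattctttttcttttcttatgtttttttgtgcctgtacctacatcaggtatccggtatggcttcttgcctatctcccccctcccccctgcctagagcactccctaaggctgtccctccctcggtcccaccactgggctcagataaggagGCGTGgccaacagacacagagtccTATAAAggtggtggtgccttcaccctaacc

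Ahr was lower in GC-2, and Arnt, Ahrr, Tiparp and Cyp1b1 passed no threshold. Ahr had intensities of 1114 and 475 on the GC-2 arrays, against 8438 and 10485 on the GC-1 arrays, and fell by 2.46 ± 0.24 log2 in GC-2 (SE, limma, adjusted p = 0.00131). Its partner Arnt changed by -0.75 ± 0.37, the repressor Ahrr by 0.03 ± 0.30 and the Ahr target Tiparp by 0.71 ± 0.26 log2, none past the threshold, although 1 of the other Arnt probes was 1.60 log2 higher. Cyp1b1, which oxidises oestradiol and aromatic hydrocarbons outside the liver, had log2 levels of 3.39 and 3.37 in GC-2 and 2.92 and 3.70 in GC-1. Its change of 0.08 ± 0.32 log2 has a 95% interval from -0.74 to 0.89, and the GC-1 arrays lay on either side of the GC-2 arrays. Under the E1A scaling the sign of the changes of Cyp1b1, Ahrr and Tiparp turned, to -1.99, -2.04 and -1.36 log2.

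Cyp2r1, the liver microsomal enzyme that starts the activation of vitamin D, was measured in both lines and was higher in GC-2. Its log2 levels were 0.28 and 0.19 in GC-2 and -3.08 and -2.68 in GC-1, a change of 3.12 ± 0.26 log2 or 8.67-fold (limma, adjusted p = 0.000771). The next enzyme of that path, Cyp27b1, changed by -0.45 ± 0.36 log2 and passed no threshold, and Cyp24a1 was at background. Cyp46a1, which hydroxylates cholesterol in the brain, had log2 levels of -1.53 and -1.27 in GC-2 and -3.01 and -3.12 in GC-1. It rose by 1.66 ± 0.24 log2 (limma, adjusted p = 0.00409), which became -0.40 under the E1A scaling. The oxysterol hydroxylase Cyp39a1, with log2 levels of 2.62 and 2.37 in GC-2 and 3.29 and 2.54 in GC-1, changed by -0.42 ± 0.33 log2 and was not called.

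The remaining rises were smaller or rested on dim probes. Cyp2d22, a mouse relative of human CYP2D6, had log2 levels of -3.21 and -4.49 in GC-2 and of -8.47 and -6.16 in GC-1, where it was not above background, and so stood higher in GC-2 by at least 4.61-fold (limma, adjusted p = 0.0206). The call was lost without GC-1 replicate 1 (2.31 log2) and without GC-2 replicate 1 (2.82 log2). It was also lost under the E1A scaling (1.40 log2) and in the authors' deposited table (3.42 log2). Cyp2w1, known in people from fetal gut and tumours, had 1 probe at least 4.88-fold higher in GC-2, and a second probe that changed by 0.19 ± 0.30 log2. Without GC-2 replicate 2 the second probe has the higher mean and stands for Cyp2w1, at 0.18 log2. Cyp2w1 lost its call there, under the E1A scaling and in the authors' deposited table. With the normexp background Cyp2d22 came to 1.41 and the first Cyp2w1 probe to 1.33 log2, both still called and both less than their bounds. Neither of these genes, nor Cyp2d26, was above the brightest ERCC probe on both GC-2 arrays. Cyp2c38, Cyp2d26 and Cyp4f16 rose by 1.43 ± 0.39, 1.30 ± 0.28 and 0.83 ± 0.23 log2 (limma, adjusted p = 0.0321, 0.0140 and 0.0321), and all turned negative under the E1A scaling, at -0.64, -0.76 and -1.24. The second Cyp2d26 probe changed by -0.29 and that of Cyp4f16 by 0.73 log2. Cyp4f16 lost its call without any one array (0.77 to 0.88 log2), Cyp2c38 without GC-1 replicate 1 or 2 (1.60 and 1.26 log2) or without GC-2 replicate 2 (0.92 log2), and Cyp2d26 without GC-1 replicate 2 or GC-2 replicate 2 (1.03 and 1.28 log2).

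**Figure D3:**
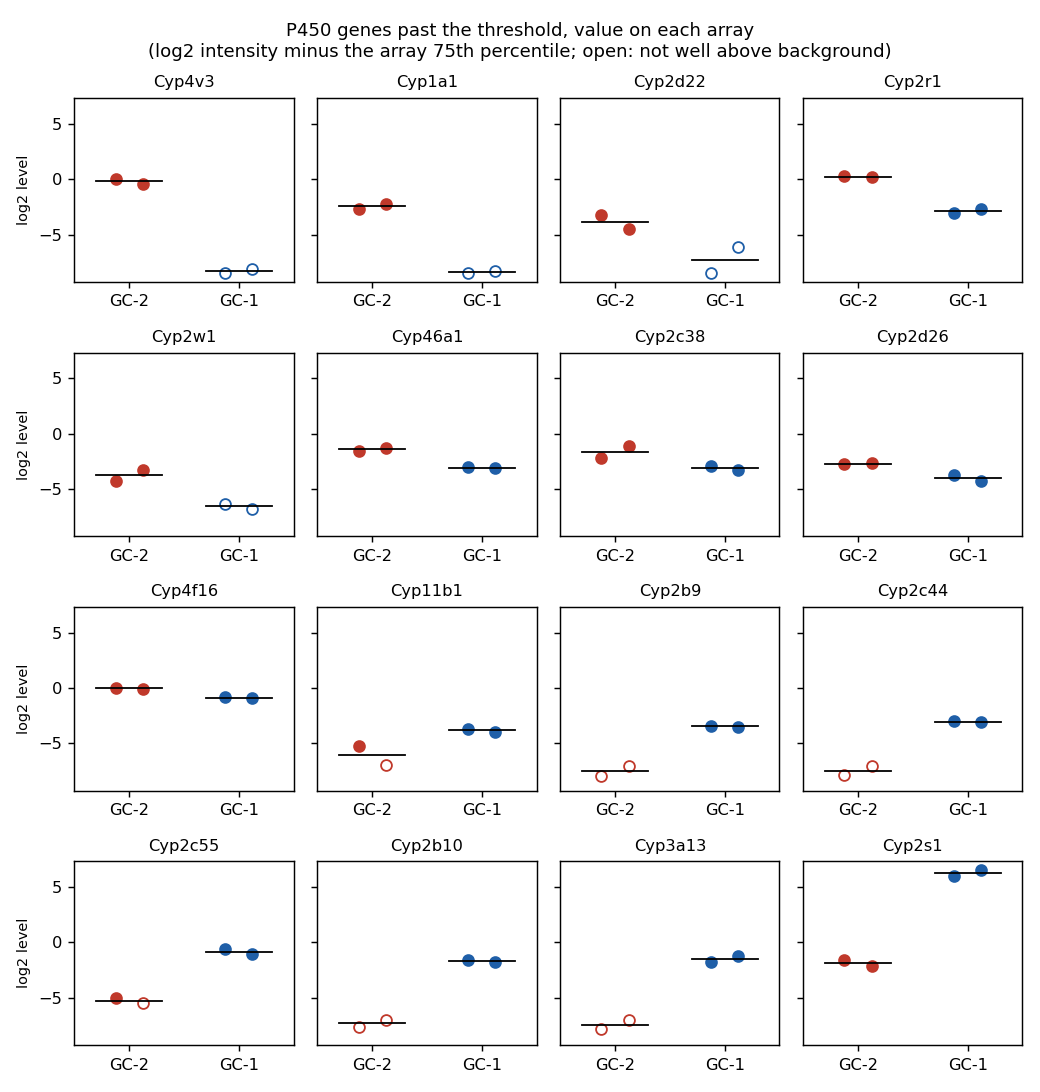
Log2 level on each array for the 16 P450 genes past the threshold, GC-2 (red) left of GC-1 (blue), with the mean of each line as a bar (n = 2 arrays per line). Open points are not well above background, and the 16 genes were chosen by the threshold on these same arrays.

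The largest fall among the tested P450 genes was that of Cyp2s1, an enzyme of epithelia outside the liver that oxidises retinoids and eicosanoids. Its intensities were 139 and 45.6 on the GC-2 arrays, against 43404 and 65030 on the GC-1 arrays, and no spot was saturated. The log2 levels were -1.58 and -2.13 in GC-2 and 6.03 and 6.55 in GC-1, and the gene fell by 8.15 ± 0.32 log2, so that GC-1 was 283-fold higher (limma, adjusted p = 0.000153). The gene has a second probe, which was above background on no array. The probe that read the fall lies at chr7:26587495-26587554 and the silent one at chr7:26589169-26589228, both on the minus strand (mm9), and the same 30 bases of each are shown to set them side by side, with nothing marked.
Cyp2s1 probe with the fall: tgacttgaaggttcccgttttgcaataaaa
Cyp2s1 silent probe: taattcaaaatactaaaattaaaaaatcta
The silent stretch holds long runs of A and T letters, and which transcript each probe reads was not tested.

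Cyp2b10, Cyp2b9 and Cyp3a13, which in liver answer to CAR and PXR or differ by sex, were measured in GC-1 and above background on no GC-2 array. Cyp3a13 had log2 levels of -7.83 and -7.00 in GC-2 and -1.78 and -1.23 in GC-1, and was at least 12.4-fold lower in GC-2 (limma, adjusted p = 0.000370), though the normexp background gave -1.16 log2, less than that bound. Cyp2b10, the mouse gene best known for its answer to phenobarbital, had log2 levels of -7.60 and -7.01 in GC-2 and -1.58 and -1.75 in GC-1, at least 11.1-fold lower in GC-2 (limma, adjusted p = 0.000230), and the normexp background gave -1.07 log2, also less than its bound. Cyp2b9 lay at -7.90 and -7.01 in GC-2 and -3.40 and -3.52 in GC-1, at least 3.20-fold lower in GC-2 (limma, adjusted p = 0.000924), but its GC-1 levels were below the brightest ERCC probe and the normexp background gave 0.063 log2. CAR itself (Nr1i3) fell by 2.65 ± 0.25 log2 (limma, adjusted p = 0.00115; -0.83 and not called with the normexp background), with intensities of 20.9 and 11.9 in GC-2 and 207 and 263 in GC-1, and PXR (Nr1i2) was above background on no array. The second Cyp2b10 probe was also above background on no array. Cyp3a11, the main Cyp3a gene of mouse liver, changed by -0.88 ± 0.35 log2 and passed no threshold (limma, adjusted p = 0.0903). It did pass in 3 of 14 alternatives, among them without GC-2 replicate 1 (-1.32 log2).

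The probes for both Cyp2b genes are shown because near-identical copies could share signal, and the promoters to set them side by side. The probes lie at chr7:26711522-26711581 and chr7:26995607-26995666 on the plus strand (mm9).
Cyp2b10: catgatctgggatctgtgctaatggactct
Cyp2b9: atgtctacagacttgcctagtatgtatggc
The most similar other probe on the array was no P450 probe for either gene, with 34 of 59 bases the same for Cyp2b10 and 32 of 54 for Cyp2b9. Probes were set against probes alone, so this cannot tell whether they also bind RNA of other Cyp2b genes, which was not tested. The promoters, at chr7:25897408-25897657 and chr7:26173159-26173408 on the plus strand (GRCm38.p6), shared 182 of 240 aligned bases (75.8%). GCGTG, on either strand and in capitals, occurs 2 times in that of Cyp2b10 and 0 times in that of Cyp2b9, and TATAAA occurs in neither.
Cyp2b10 promoter: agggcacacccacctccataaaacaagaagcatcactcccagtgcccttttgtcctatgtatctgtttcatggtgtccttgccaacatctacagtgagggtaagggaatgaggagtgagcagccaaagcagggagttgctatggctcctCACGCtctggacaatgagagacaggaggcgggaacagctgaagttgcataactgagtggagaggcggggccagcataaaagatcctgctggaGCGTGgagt
Cyp2b9 promoter: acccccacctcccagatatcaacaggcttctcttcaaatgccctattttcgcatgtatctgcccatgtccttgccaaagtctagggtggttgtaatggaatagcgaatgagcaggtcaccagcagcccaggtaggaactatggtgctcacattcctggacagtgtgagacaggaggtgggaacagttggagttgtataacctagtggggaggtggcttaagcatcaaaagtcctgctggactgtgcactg

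Among the Cyp2c genes, Cyp2c55 and Cyp2c44 fell. Cyp2c55, a gut and colon enzyme that oxidises arachidonic acid, had log2 levels of -5.06 and -5.46 in GC-2, where 1 array was above background, and -0.57 and -1.08 in GC-1. It fell by 4.44 ± 0.30 log2 (limma, adjusted p = 0.000432), and its second probe by 3.96 ± 0.33. With 1 GC-2 array at background the size of the fall is uncertain, and the normexp background gave -1.61 log2, still called. Cyp2c44, an epoxygenase of kidney and vessels, lay at -7.89 and -7.01 in GC-2 and -2.98 and -3.07 in GC-1, at least 4.33-fold lower in GC-2 (limma, adjusted p = 0.000688), and the normexp background gave -0.14 log2. Cyp2c65 was also above background on no GC-2 array, but its change of -1.03 ± 0.42 log2 passed no threshold and allows only at least 1.47-fold. Cyp2c65 did pass in 4 of 14 alternatives. They were quantile normalization (-1.31 log2), median centring (-1.34 log2), the E1A scaling (-3.09 log2) and the fit without GC-2 replicate 2 (-1.56 log2). It came to 0.65 log2, uncalled, with the normexp background. The value for Cyp2c67 is uncertain, since 55 of 59 bases of its probe match that of Cyp2c68.

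Genes seen in 1 line and on no array of the other were few. In GC-2 they were Cyp1a1, Cyp4v3 and Cyp2d22, or 3.45% of the P450 genes against 1.23% of all genes. In GC-1 they were Cyp2b9, Cyp2b10, Cyp2c44, Cyp2c65 and Cyp3a13, or 5.75% against 4.21%. Cyp11b1, which makes corticosterone in the adrenal cortex, was measured in GC-1 and was above background on 1 array of GC-2. Its log2 levels were -5.21 and -6.93 in GC-2 and -3.70 and -3.93 in GC-1, and it fell by 2.26 ± 0.57 log2 (limma, adjusted p = 0.0241). It lost its call without GC-1 replicate 1 or 2 (-2.14 and -2.38 log2) and came to 0.38 log2 with the normexp background. The GC-1 levels of Cyp11b1 and of Cyp2c65 were below the brightest ERCC probe of each array.

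For some genes the answer depends on the probe. Cyp2u1, a fatty acid hydroxylase of brain and thymus, has 3 tested probes. The one with the highest mean, which stands for the gene here, had log2 levels of 7.28 and 7.26 in GC-2 and 7.52 and 7.26 in GC-1 and changed by -0.11 ± 0.24 log2. The other probes rose by 1.79 ± 0.26 and 1.34 ± 0.23 log2 in GC-2 (limma, adjusted p = 0.00414 and 0.00692), less than the shift of the E1A scaling, and the mean over the probes rose by 1.00 log2. The first probe holds a run of 32 alternating G and T letters, a length that 13 of 56605 probes reach. Its nearest probe on the array, for Eya1, has 41 of 56 bases in common with it. Bases 16 to 45 of each are shown, with the run in capitals.
Cyp2u1 probe with the highest mean: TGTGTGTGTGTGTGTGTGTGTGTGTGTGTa
Cyp2u1 probe with 1.79: gactacctgttctacatcattggggacctc
Cyp2u1 probe with 1.34: cgctcgccattcctcacatgacctcggaga
Cyp20a1, a P450 with no settled substrate, likewise had a called probe at 2.20 ± 0.24 log2 and 2 others at 0.24 ± 0.46 and 0.53 ± 0.39 log2.

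The 29 uncalled genes are not shown to be alike in both lines. For 20 of them the 95% interval reached a 2-fold change in some direction. They include Cyp2e1, which oxidises ethanol and small solvents, at -0.28 ± 0.37 log2, and Cyp21a1, the steroid hydroxylase of the adrenal, at -0.30 ± 0.31 log2. All 3 measured Cyp2j genes, which make epoxides of arachidonic acid, were uncalled, with Cyp2j6 at -0.58 ± 0.22 log2 (limma, adjusted p = 0.0843) the nearest to the threshold of all uncalled P450 genes.

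Of 12 tested genes that carry electrons to P450 enzymes, 2 rose and 4 fell in GC-2, with a median change of -0.14 log2. These are 50% of the list, against 44.1% of all genes tested (18.3% higher and 25.7% lower, median -0.13 log2). The mitochondrial pair rose together: ferredoxin Fdx1 by 1.43 ± 0.23 and its reductase Fdxr by 1.33 ± 0.23 log2 (limma, adjusted p = 0.00540 and 0.00693), which became -0.64 and -0.74 under the E1A scaling. Of the microsomal carriers, cytochrome b5 (Cyb5a) had intensities of 8720 and 2985 in GC-2 and 109741 and 107985 in GC-1, and fell by 3.18 ± 0.27 log2 (limma, adjusted p = 0.000831). The reductase Por fell by 0.83 ± 0.26 log2 (limma, adjusted p = 0.0451). That call was lost in 10 of 15 alternatives, among them each array left out (-1.03 to -0.63 log2), quantile normalization and the authors' deposited table. Cyb5r3, which reduces cytochrome b5, fell by 1.09 ± 0.23 log2 by 1 probe and rose by 1.18 log2 by another, and the call was lost without GC-1 replicate 1 (-0.99 log2), GC-1 replicate 2 (-1.19 log2) or GC-2 replicate 2 (-1.05 log2).

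Of 14 tested genes of haem supply and breakdown, 3 rose and 3 fell, or 42.9% of the list against 44.1% of all genes tested, and the medians were 0.09 and -0.13 log2. Alas1, which makes the rate-limiting step of haem synthesis, rose by 1.61 ± 0.24 log2 (limma, adjusted p = 0.00457) and its other probes by 2.88 and 3.35. Slc25a38, the mitochondrial glycine carrier of that path, rose by 1.72 ± 0.23 log2, and under the E1A scaling Alas1 and Slc25a38 came to -0.46 and -0.35 log2. Alad, the enzyme after Alas1, fell by 2.80 ± 0.23 log2, but was 3.21 log2 higher in the authors' deposited table. The other Alad probe fell by 1.70 log2, which is not a measured change since it was at background in GC-2 (intensities of 3.34 and 1.56). Blvrb, which reduces biliverdin, fell by 1.24 ± 0.28 log2, a call lost without GC-1 replicate 1 (-0.96 log2) or either GC-2 array (-1.24 log2 each). The haem oxygenase Hmox1 has no settled direction. Its brighter probe gave 0.40 log2 and passed no threshold, and the authors' deposited table gave -4.23. A dim second probe gave 4.61 log2, with intensities of 22.6 and 23.4 in GC-2 and 1.88 and 2.60 in GC-1. Those GC-1 values lie below the dimmest probe well above background on their arrays, so 4.61 is not a measured change.

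Of 20 tested sensors and regulators, 5 rose and 7 fell, or 60% against 44.1% of all genes tested, with medians of -0.17 and -0.13 log2. Besides Ahr and Nr1i3, Nr1h3, the oxysterol receptor, fell by 2.70 ± 0.27 log2, while the bile acid receptor Nr1h4 rose by 3.18 ± 0.26 log2 (limma, adjusted p = 0.00135 and 0.000781), and the normexp background gave -1.49 and 2.80 log2. Of 27 tested genes of conjugation and other oxidation, out of 45 with a probe, 6 rose and 10 fell, or 59.3% against 44.1% of all genes tested, with medians of -0.47 and -0.13 log2. Ephx2, which hydrolyses the epoxides that Cyp2c and Cyp2j enzymes make, rose by 4.28 ± 0.24 log2, with intensities of 425 and 168 in GC-2 and 30.2 and 34.8 in GC-1, and by 2.90 log2 with the normexp background. The aldehyde dehydrogenase Aldh3a1 fell by 3.15 ± 0.54 and the sterol sulfotransferase Sult2b1 fell by 2.89 ± 0.24 log2, and the carboxylesterase Ces2e was at least 1.97-fold lower (0.39 log2 with the normexp background). The quinone reductase Nqo1 and the epoxide hydrolase Ephx1 changed by -0.41 ± 0.23 and -0.94 ± 0.33 log2 and passed no threshold. Ephx1 did pass in 5 of 15 alternatives, among them without GC-2 replicate 1 (-1.33 log2).

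**Figure D4:**
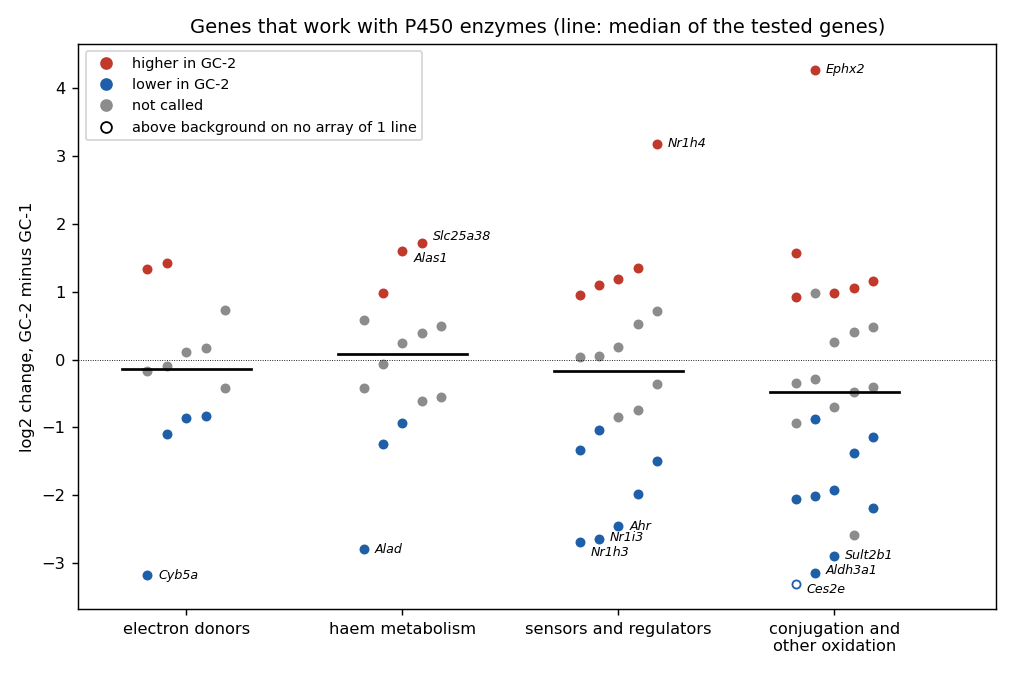
Log2 change, GC-2 minus GC-1, of the tested genes that supply, regulate or follow P450 enzymes (1 point per gene, black line: median of the list). Points past the threshold lie on both sides of 0 in each of the 4 lists, from -3.18 for Cyb5a to 4.28 for Ephx2 among filled points, and the open point is Ces2e, above background on no GC-2 array, whose place is not a measured change.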

How the data were processed

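Intensities came from Agilent Feature Extraction 11.5.1.1, per the file headers, and the deposited processed intensity is background-subtracted and not normalized between arrays. The deposited scanner files also give raw mean and background intensities and flags scored 0 or 1. The deposited series table holds the authors' log2 values, 1 per gene name. For 381 probe-named rows these equal the log2 processed intensity minus a constant (SD of the difference 0.00174 to 0.00237). Column medians were -3.64 and -3.53 for GC-2 and -3.78 and -3.67 for GC-1. How the authors combined probes is not stated.

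Spots were averaged per probe on the log2 scale, without irregular spots, and the array's 75th percentile was subtracted. Probes well above background on both arrays of a line were tested with limma 3.58.1 in R 4.3.3 (two-sided, Benjamini-Hochberg, 0.05). A gene was its tested probe with the highest mean. Where a line had no array above background, the fold is a bound: the brighter line's mean against the dimmer line's detection limit, or its own signal if higher. Spike-in probes used for scaling were the 8 E1A probes above background throughout. The fit was also run on data simulated from its own model, which cannot check whether the arrays are independent, the dim probes or the scaling. Members, lists and the naming rule (all called P450 genes, a fixed set of well-known ones, and up to 4 genes per partner list) were chosen with earlier results of these data known. The genes whose probes disagree and the remaining uncalled examples were picked after their values were seen. Alternatives covered background, scaling, filter, detection flag, probe choice, each array left out, the replicate number as a block, and the authors' table. The labels do not say whether replicate numbers pair the samples, and the correlation between same-number arrays (r = 0.146 over 30316 probes) cannot tell with 2 pairs.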

Additional observations from a re-analysis of the deposited data

How the results depend on the processing

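Of the 16 P450 genes past the threshold, 7 kept their call in every alternative that gave a value: Cyp1a1, Cyp2b10, Cyp2c55, Cyp2r1, Cyp2s1, Cyp3a13 and Cyp4v3, although their size shrank with the normexp background. With the normexp background 4 P450 genes were lower, the median of the tested P450 genes was 0.68 log2, and Cyp11b1, Cyp2b9 and Ces2e came to 0.38, 0.063 and 0.39 log2. Median centring left 8 higher partner genes. With the E1A scaling 3 P450 genes were higher and 37 lower (median -2.17), as were 644 and 15154 of all genes (median -2.19) and 2 and 63 partner genes. Under it Cyp1b1 came to -1.99, Cyp20a1 to -1.83, Cyp2c38 to -0.64, Cyp2d26 to -0.76, Cyp46a1 to -0.40, Cyp4f16 to -1.24, Fdx1 to -0.64, Fdxr to -0.74, Slc25a38 to -0.35, Alas1 to -0.46, Ahrr to -2.04, Tiparp to -1.36 and Hmox1 to -1.67 log2. With probes above background on all 4 arrays, 5 P450 genes were higher and 1 lower, since genes dim in 1 line then go untested. Without a filter 14 were higher (median 0.51 log2, all genes 0.20). With the laxer flag for positive and significant spots 15 were higher (median 0.22 log2) and 56 were measured in GC-2 and 55 in GC-1. With the limit at the brightest ERCC probe, chosen after the data were seen, 18 were measured in GC-2 and 21 in GC-1. The mean over probes gave 1.00 log2 for Cyp2u1 and 0.054 for Cyb5r3. In the authors' deposited table the medians were 0.51 log2 for P450 genes and 0.36 for all genes, and Cyb5r3, Alad and Hmox1 were at 0.010, 3.21 and -4.23. Without 1 array in turn, higher P450 genes numbered 6 to 10 and lower ones 6 to 8, with a median of -0.09 to 0.12 log2. Higher genes numbered 1895 to 2543 and lower ones 2524 to 3465 over the array (medians -0.14 to -0.10), and 8 to 11 and 12 to 20 among partner genes. Measured P450 genes numbered 32 to 43 in GC-2 and 42 to 45 in GC-1. A lone array was then assumed to vary like the other line. With the replicate block 9 P450 genes were higher and 7 lower, and of the named genes only Por lost its call (adjusted p = 0.0535). The cause of these shifts was not tested except where the setting itself shows it.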
